A study of Mus musculus with 36 samples.

Results

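The CD antigens examined here are surface molecules of leukocytes, endothelium and stroma that carry a cluster of differentiation number as their mouse gene symbol. They were taken as every probe set of the expression table whose single gene symbol is Cd followed by a number, an optional letter and an optional second number, leaving out Cd14, Cd36, Cd53, Cd68 and Cd74. The rule found 71 probe sets for 54 genes among 12488 probe sets, of which 10855 name 1 gene. By the cell type each molecule is best known from, 8 genes were grouped as myeloid, 26 as lymphoid, 2 as endothelial and 18 as other, and 13 of the 54 genes had several probe sets. The grouping is a label for reading and not a sort, since many of these molecules are shared between cell types.

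The arrays measured RNA of whole muscle from the dystrophin-deficient mouse strains mdx and mdx5cv and from C57BL10 mice, which have normal dystrophin. In mdx a stop codon interrupts the dystrophin gene Dmd, and in mdx5cv a base change creates a false splice site. The mutation is carried in every cell of the animal, and the labels give no genetic background for either mutant. The labels describe every sample as a pool of RNA from 5 males at 8 weeks of age, and 2 samples were labelled for each of the 18 combinations of 3 strains with the muscles diaphragm, EDL, gastroc, quadriceps, soleus and TA. The column of mdx gastroc sample 2 equalled mdx quadriceps sample 2 and that of mdx5cv gastroc sample 1 equalled mdx5cv quadriceps sample 1 in all 12488 probe sets, so both gastroc copies were left out. This left 34 arrays, 12 of C57BL10, 11 of mdx and 11 of mdx5cv, and each mutant gastroc group held 1 array. Nothing in the labels says whether the samples of a group were separate pools of animals, so p-values measure the spread between these samples, which may be technical. In whole muscle, more cells of a type and more RNA per cell cannot be told apart.

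Signals of the deposited table were scaled to a common trimmed mean, and the median signal of an array lay between 458.1 and 1026.3. A level is given as this signal, with no unit of its own, and differences are on the log2 scale, where 1 is a doubling. Signals below 118, the 20th percentile of the table, were set to that floor for the tests, and no level was compared between probe sets. Dmd itself was lower in both mutants, by a log2 difference of -1.50 ± 0.25 (limma standard error) in mdx and -1.25 ± 0.25 in mdx5cv (limma adjusted p = 1.4e-04 and 0.0011). Skeletal muscle genes, most of them of the contractile apparatus, marked every group as skeletal muscle. The mean log2 level of these 10 muscle marker genes lay between 14.07 and 16.07. A set of 12 liver marker genes was high in all diaphragm samples, at 14.57, 14.74 and 13.30 in C57BL10, mdx and mdx5cv against 8.59, 8.41 and 8.19 in the limb muscles. Among the C57BL10 limb muscles it was 10.80 in TA, in both arrays, and 7.85 to 8.17 in the others. Sample 2 of C57BL10 TA and sample 2 of mdx5cv quadriceps stood apart, with median rank correlations to the other arrays of 0.621 and 0.769. The description of mdx EDL sample 1 names the other mutant, and its title was followed. Scan days recorded for 30 arrays fell into 4 periods more than 30 days apart: the first and the last held C57BL10 alone (5 arrays and 1 array), the second mutants alone (5 mdx and 4 mdx5cv), and the third all strains (4 C57BL10, 5 mdx and 6 mdx5cv). The actin 3' to 5' ratio was 0.768 ± 0.114 (SD, n = 12) in C57BL10, 1.1 ± 0.343 (n = 11) in mdx and 1.03 ± 0.126 (n = 11) in mdx5cv; its part in the results was not tested.

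Muscle fibres without dystrophin break down and are rebuilt in repeated cycles, and macrophages, lymphocytes and fibroblasts gather around them. CD antigens act at this surface as adhesion molecules, receptors for ligands on neighbouring cells, brakes on complement, or tetraspanins, which organise other membrane proteins into patches. Several are pairs: Cd48 binds Cd244a, Cd27 binds Cd70, Cd28 binds Cd80 and Cd86, and Cd47 binds the myeloid receptor Sirpa.

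Promoter sequence is shown for the genes tested after the filter on low signals that rose by more than 1 log2 unit in both mutants. Of these 5 genes, Cd93, Cd48, Cd52, Cd300c2 and Cd55, 3 had an entry in the RefSeq promoter table (GRCm38.p6), which holds 250 bases before and 50 after the start. The Cd48 window is chr1:171681742-171682041 on the plus strand, the Cd55 window is chr1:130462695-130462994 on the minus strand and the Cd300c2 window is chr11:115001831-115002130 on the minus strand. Capitals mark matches, on either strand, to GAGGAA, the core of sites of PU.1 and other ETS factors of myeloid cells, or to GGGCGG, the GC box.
Cd48: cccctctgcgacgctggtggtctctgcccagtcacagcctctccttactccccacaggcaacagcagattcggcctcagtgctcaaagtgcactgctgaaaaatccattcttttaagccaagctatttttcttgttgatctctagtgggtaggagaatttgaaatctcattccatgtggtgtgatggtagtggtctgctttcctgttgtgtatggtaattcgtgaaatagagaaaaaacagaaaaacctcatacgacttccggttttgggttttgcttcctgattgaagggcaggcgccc
Cd55: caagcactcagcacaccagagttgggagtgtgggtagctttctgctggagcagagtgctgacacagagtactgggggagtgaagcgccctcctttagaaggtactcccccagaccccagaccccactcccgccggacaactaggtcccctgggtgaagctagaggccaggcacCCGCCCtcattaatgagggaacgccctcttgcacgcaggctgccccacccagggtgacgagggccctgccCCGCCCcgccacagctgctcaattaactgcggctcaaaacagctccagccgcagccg
Cd300c2: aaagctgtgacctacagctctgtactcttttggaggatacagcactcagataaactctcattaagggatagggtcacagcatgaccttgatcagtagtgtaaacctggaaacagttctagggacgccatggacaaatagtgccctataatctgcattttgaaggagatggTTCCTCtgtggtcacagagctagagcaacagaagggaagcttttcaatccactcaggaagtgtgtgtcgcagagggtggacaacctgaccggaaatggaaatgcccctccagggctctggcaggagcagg
The Cd300c2 window held 1 match to GAGGAA and the Cd55 window 2 to GGGCGG, while the Cd48 window held neither. Over all 32851 promoters in the table, 28.3% held GAGGAA and 35.7% GGGCGG, and of the 45 promoters of 37 member genes 19 and 17 held them. TATAAA was found in 13.6% of all promoters and in 3 of the 45, and CCAAT in 37.4% and in 10. The windows of Cd48, Cd55 and Cd300c2 held no match to either of these. GC content was 47.3% in the Cd48 window, 63.3% in the Cd55 window and 49.0% in the Cd300c2 window. A match is a description of these letters and not a binding site.

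A filter on low signals, at the 40th percentile of the probe set means (signal 350.5, log2 8.45), left 7453 probe sets for testing, among them 36 of the 71 member probe sets and 31 of the 54 genes. Cd7 lay just inside the filter at a mean of 8.52, and Cd86 just outside it at 8.27. The comparisons below count genes by the probe set with the highest mean. In mdx, averaged over the 6 muscles, 10 of the 31 tested genes were higher than in C57BL10, 1 was lower and 20 did not pass (limma, adjusted p at or under 0.05). Over all probe sets tested 15.9% passed, 10% higher and 5.82% lower. In mdx5cv 11 of the 31 genes were higher and none lower, against 14.9% of all probe sets, 10.5% higher and 4.47% lower. The median log2 difference of the 31 genes was 0.15 in mdx and 0.23 in mdx5cv, beside -0.06 and 0.02 over all probe sets tested. Both mutants share the same C57BL10 arrays, so their values are given side by side and not as separate evidence. Higher in both were Cd93, Cd48, Cd52, Cd300c2, Cd55, Cd63, Cd82, Cd47 and Cd276, while 7.76% of all probe sets tested were higher in both.

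**Figure D1:**
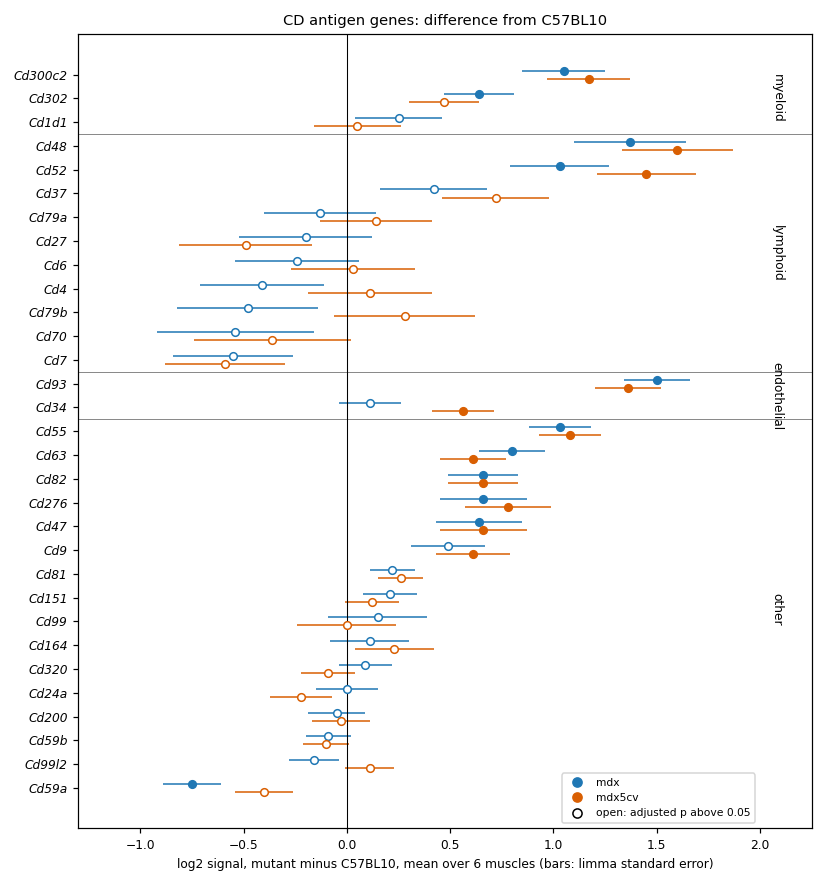
Log2 signal of each mutant minus C57BL10, averaged over 6 muscles, for the 31 tested CD antigen genes in 4 classes; bars are limma standard errors and filled points passed the adjusted p threshold. Cd93, Cd48, Cd52, Cd300c2 and Cd55 lie at 1 or above in both mutants, and Cd59a is the gene that passed below 0, in mdx.

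Cd93, a C-type lectin-like receptor of endothelial cells that myeloid cells also carry, had the smallest adjusted p of the members in both mutants. Its signal ran from 671 through a median of 1599.5 to 2409.8 in C57BL10, from 2159 through 4724 to 6379 in mdx, and from 2482 through 3743 to 5409 in mdx5cv. All 11 mdx5cv arrays and 10 of 11 mdx arrays lay above the highest C57BL10 array. Within each of the 6 muscles every mutant array lay above both C57BL10 arrays. Cd55, Cd48 and Cd276 separated so in 5 muscles each, and Cd52, Cd300c2, Cd302 and Cd63 in 4. Separation downward reached at most 3 muscles, in Cd7, Cd24a and Cd59a. The share of all probe sets that separate within muscles was not counted. These muscle counts therefore describe the arrays and are not a result about the members. The Cd93 difference was 1.50 ± 0.16 in mdx (limma adjusted p = 2.4e-07) and 1.36 ± 0.16 in mdx5cv (1e-06). Within the third scan period it was 1.78 (adjusted p = 0.0035) and 1.62 (0.0038). It passed under every alternative tried in both mutants.

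Cd34, a sialomucin of endothelium that also marks satellite cells and stromal progenitors, is the other endothelial gene. With its brighter probe set the signal ran 1169.5, 1831, 2486 (lowest, median, highest) in C57BL10, 1077, 2046, 3033 in mdx and 1710.5, 2769, 3630.3 in mdx5cv. Of the mdx5cv arrays 7 lay above all C57BL10 arrays, and 3 of the mdx arrays did. The log2 difference was 0.56 ± 0.15 in mdx5cv (limma adjusted p = 0.0096) and 0.11 ± 0.15 in mdx (0.65). The second probe set of Cd34 gave 0.17 and 0.11 and passed in neither. The mdx5cv value was 0.57 (adjusted p = 0.084) with the scan period as a block and 0.66 (0.21) within the third period. A companion list of 12 endothelial genes showed 1 gene higher and 1 lower in each mutant, with medians of -0.11 and 0.20. Those were Mcam, a cell adhesion molecule of vessels and pericytes, at 0.70 ± 0.16 and 0.62 ± 0.16, and the VEGF receptor Flt1 at -0.61 ± 0.16 and -0.89 ± 0.16 (mdx and mdx5cv). The mean log2 level of this list was 10.38 ± 0.20 (SD, n = 12) in C57BL10, 10.35 ± 0.22 (n = 11) in mdx and 10.47 ± 0.28 (n = 11) in mdx5cv.

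Among the 10 tested lymphoid genes 2 passed (20%), in both mutants, beside 15.9% of all probe sets tested in mdx and 14.9% in mdx5cv. They are molecules that most leukocytes carry. Cd48, a lipid-anchored adhesion molecule of nearly all leukocytes, had signals of 69, 202 and 701 (lowest, median, highest) in C57BL10, 115, 684 and 1046.5 in mdx, and 279, 744 and 1629.6 in mdx5cv. The highest C57BL10 value came from TA sample 2, and without it 8 of 11 mdx arrays and all but 1 of the 11 mdx5cv arrays lay above every C57BL10 array. The C57BL10 median lay under the filter signal of 350.5, and 4 C57BL10 arrays lay under the floor. Cd48 thus reached the tests through its mutant arrays, where it is high. Its log2 difference was 1.37 ± 0.27 in mdx (limma adjusted p = 7.4e-04) and 1.60 ± 0.27 in mdx5cv (1.2e-04). Within the third scan period it was 1.67 (adjusted p = 0.12) and 2.30 (0.013). Cd52 encodes a short lipid-anchored glycopeptide of lymphocytes that monocytes and macrophages carry as well. Its signals were 147, 616 and 1821 in C57BL10, 336, 1639.6 and 2279 in mdx, and 795, 1847 and 4243.5 in mdx5cv. The groups overlapped, and 3 mdx and 6 mdx5cv arrays lay above all C57BL10 arrays. Cd52 differed by 1.03 ± 0.24 in mdx (limma adjusted p = 0.0034) and 1.45 ± 0.24 in mdx5cv (8.2e-05), and by 1.14 (0.33) and 2.16 (0.024) within the third period.

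None of the 8 other tested lymphoid genes passed in either mutant with all arrays. The B cell receptor chains Cd79a and Cd79b were at -0.13 ± 0.27 and -0.48 ± 0.34 in mdx and at 0.14 ± 0.27 and 0.28 ± 0.34 in mdx5cv. Cd4, the coreceptor of helper T cells that some macrophages also carry, was at -0.41 ± 0.30 and 0.11 ± 0.30. The T cell costimulator Cd27 and its ligand Cd70 were at -0.20 ± 0.32 and -0.54 ± 0.38 in mdx and at -0.49 ± 0.32 and -0.36 ± 0.38 in mdx5cv. Cd6, a scavenger-type receptor of T cells, was at -0.24 ± 0.30 and 0.03 ± 0.30. Cd7, an early T and natural killer cell marker, was at -0.55 ± 0.29 and -0.59 ± 0.29, and in mdx5cv it passed at -0.83 (limma adjusted p = 0.018) without mdx5cv quadriceps sample 2. Cd37, a tetraspanin of mature B cells, was at 0.42 ± 0.26 in mdx and 0.72 ± 0.26 in mdx5cv (limma adjusted p = 0.30 and 0.071). In mdx5cv it passed at 1.05 (0.036) with the scan period as a block and at 0.81 (0.036) without C57BL10 TA sample 2, and in 4 other fits that left out 1 array (adjusted p 0.030 to 0.040). The median over the 10 lymphoid genes was -0.22 in mdx and 0.12 in mdx5cv. It was 0.19 and 0.50 with the scan period as a block and 0.38 and 0.92 within the third period. Both fits also used fewer arrays, and the third period held no C57BL10 diaphragm or TA array. For the change of direction in mdx, scan period and choice of arrays cannot be told apart. Without C57BL10 TA sample 2 the median was -0.13 and 0.25, and without both arrays that stood apart -0.13 and 0.05. Companion genes of T cells gave 1 higher of 3 tested in each mutant, Thy1 at 1.07 ± 0.23, which fibroblasts carry as well. Of 6 B cell companions, the adaptor Blnk was at 0.83 ± 0.28 and Ms4a1, the gene of CD20, at -0.60 ± 0.18 in mdx, both past the threshold, and none passed in mdx5cv.

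Of the 3 tested myeloid genes, Cd300c2 was higher in both mutants and Cd302 in mdx, beside 10% (mdx) and 10.5% (mdx5cv) of all probe sets tested. Cd300c2 is an activating immunoglobulin-type receptor of myeloid cells, and its signals were 318, 829.8 and 1777 in C57BL10, 678, 1894 and 2277 in mdx, and 1275 through 1797.5 to 2635.5 in mdx5cv. C57BL10 TA sample 2 gave the highest C57BL10 value, and without it all 11 mdx5cv and 9 of 11 mdx arrays lay above the C57BL10 arrays. The difference was 1.05 ± 0.20 (limma adjusted p = 5.2e-04) and 1.17 ± 0.20 (1.4e-04), and within the third scan period 0.90 (0.24) and 1.20 (0.066). Cd302, a C-type lectin receptor of macrophages and dendritic cells, ran 259.7, 516 and 3057 in C57BL10, 453, 951.5 and 3202 in mdx, and 436, 941 and 1629 in mdx5cv. The groups overlapped, in the limb muscles too, and the diaphragm arrays gave the highest signals of each strain. Cd302 differed by 0.64 ± 0.17 in mdx (limma adjusted p = 0.0092) and 0.47 ± 0.17 in mdx5cv (0.062), where it passed at 0.0059 without the arrays that stood apart. Within the third period the values were 1.13 (0.11) and 0.88 (0.16). Cd1d1, which presents lipids to natural killer T cells, was at 0.25 ± 0.21 and 0.05 ± 0.21 and did not pass.

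Beside these, 11 of 12 tested myeloid companion genes were higher in each mutant, with medians of 1.57 and 1.55. In mdx and mdx5cv they included the macrophage perforin Mpeg1 at 2.55 ± 0.14 and 2.41 ± 0.14, the signalling adaptor Tyrobp at 2.24 ± 0.18 and 2.20 ± 0.18, and Sirpa, the receptor of Cd47, at 2.15 ± 0.23 and 2.06 ± 0.23. The mean log2 level of all 18 companions on the array ran from 8.16 to 9.92 in C57BL10, from 9.01 to 10.32 in mdx and from 9.10 to 10.38 in mdx5cv. Fibroblast companions were higher in 9 of 11 cases in each mutant, with medians of 0.89 and 1.07, led in mdx by the collagens Col3a1 (1.87 ± 0.14) and Col1a1 (1.52 ± 0.15) and the proteoglycan Lum (1.48 ± 0.12). Of 6 satellite cell markers 3 were higher, among them Vcam1 at 1.25 ± 0.27 and 1.50 ± 0.27. None of the 10 muscle markers passed, of 9 tested liver markers 2 were lower in mdx5cv, and of 4 erythroid genes 2 in mdx and 3 in mdx5cv were lower. Over all probe sets tested, 10% were higher and 5.82% lower in mdx, and 10.5% and 4.47% in mdx5cv. The medians over all probe sets tested were -0.06 and 0.02. The part that these cell types have in the CD antigen values was not tested.

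**Figure D2:**
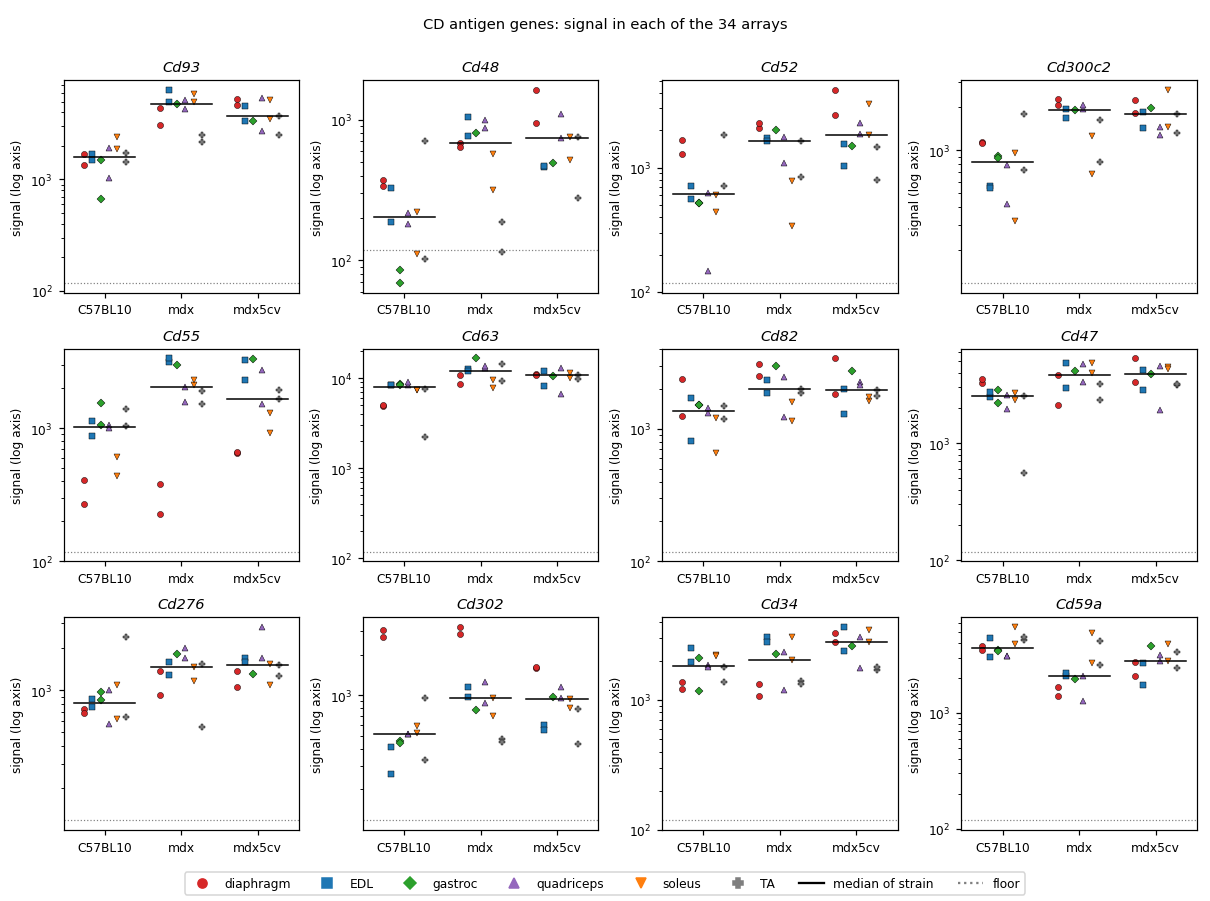
Signal (log axis) of 12 CD antigen genes in each of the 34 arrays by strain, with the muscle as colour and symbol; black bars are strain medians and the dotted line is the floor of 118. For Cd93 the mutant arrays lie from 2159 upward and the C57BL10 arrays from 2409.8 downward, while for Cd302 the diaphragm arrays lie above the other muscles of their strain, and for Cd55 below them.

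Among the regulators of complement, Cd55 was higher in both mutants and Cd59a was lower in mdx. Cd55, the decay-accelerating factor that takes apart C3 convertases, had signals of 269, 1016 and 1553 in C57BL10, 226, 2045 and 3348 in mdx, and 656, 1647 and 3334 in mdx5cv. Within EDL, gastroc, quadriceps, soleus and TA every mutant array lay above both C57BL10 arrays, a separation not counted over all probe sets. The log2 difference was 1.03 ± 0.15 in mdx (limma adjusted p = 1.7e-05) and 1.08 ± 0.15 in mdx5cv (8.4e-06), and within the third scan period 1.10 (0.12) and 1.28 (0.035). Cd59a, which blocks the membrane attack complex, ran 3015, 3652 and 5514 in C57BL10, 1268, 2106 and 4942 in mdx, and 1728, 2785.5 and 3925 in mdx5cv. It fell in mdx, by a log2 difference of -0.75 ± 0.14 (limma adjusted p = 5.3e-04), with the same direction in all 6 muscles. The mdx5cv value was -0.40 ± 0.14 (adjusted p = 0.064), and within the third period -0.53 (0.35) in mdx and -0.25 (0.66) in mdx5cv. In mdx5cv Cd59a passed in 3 of 43 alternatives, among them sample number as a block (-0.42, limma adjusted p = 0.024). Its neighbour Cd59b was at -0.09 ± 0.11 and -0.10 ± 0.11, and neither value passed. Cd59a and Cd59b are close copies, so their signals may share hybridised RNA and are uncertain. Cd46, another regulator, which in mice is known mainly from sperm, lay under the filter and at the floor in 26 arrays.

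Counting Cd37, 2 of 6 tested tetraspanins were higher in mdx, Cd63 and Cd82, and 3 in mdx5cv, with Cd9 added. Over all probe sets tested 10% were higher in mdx and 10.5% in mdx5cv. Cd63, a tetraspanin of lysosomes and secretory vesicles, had signals of 2243, 7978.5 and 9179 in C57BL10, 7848, 11949 and 16600.1 in mdx, and 6738, 10947 and 13126 in mdx5cv. Of the 11 arrays of each mutant 9 lay above every C57BL10 array, and the low C57BL10 value of 2243 was TA sample 2. Cd63 differed by 0.80 ± 0.16 (limma adjusted p = 0.0012) and 0.61 ± 0.16 (0.011), by 0.65 and 0.55 without the arrays that stood apart, and by 0.36 (0.53) and 0.12 (0.85) within the third period. Cd82, known from satellite cells and leukocytes, ran 657, 1369 and 2399 in C57BL10, 1143, 1999.7 and 3087 in mdx, and 1293, 1981 and 3403 in mdx5cv. The log2 difference was 0.66 ± 0.17 in both (limma adjusted p = 0.0095 and 0.0094). A second tested probe set of Cd82 went the other way, at -0.45 ± 0.16 and -0.09 ± 0.16 without passing, so the direction of Cd82 depends on the probe set. With the scan period as a block Cd82 was at 0.17 (adjusted p = 0.66) and 0.24 (0.54), and within the third period at 0.20 (0.81) and 0.28 (0.66). Cd9, which together with Cd81 restrains the fusion of macrophages, ran 989, 2689 and 6305.5 in C57BL10, 2189, 3547 and 6833.5 in mdx, and 1932, 3692 and 8035 in mdx5cv. It was at 0.49 ± 0.18 (limma adjusted p = 0.072) and 0.61 ± 0.18 (0.025), and in mdx5cv it remained past the threshold in 25 of 32 fits that left out 1 array, reaching 0.062 without C57BL10 gastroc sample 2. Cd9 in mdx5cv was also lost without both arrays that stood apart (0.49, 0.052), with scan day as a random block (0.57, 0.073), with the scan period as a block (0.40, 0.22) and within the third period (0.55, 0.25). In mdx Cd9 passed in 3 of 43 alternatives, each of which left out 1 array. Cd81 was at 0.22 ± 0.11 and 0.26 ± 0.11, and Cd151, a partner of laminin-binding integrins, at 0.21 ± 0.13 and 0.12 ± 0.13, with neither past the threshold in either mutant. Without both arrays that stood apart Cd81 passed in mdx5cv, at 0.29 (limma adjusted p = 0.045).

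Cd47 and Cd276 were the 2 other genes to pass. Cd47, the surface signal that restrains engulfment by macrophages, ran 554, 2553 and 3515 in C57BL10, 2130.4, 3846 and 4866 in mdx, and 1927, 3905 and 5305 in mdx5cv. The C57BL10 minimum was again TA sample 2, and 6 arrays of each mutant lay above all C57BL10 arrays. Its log2 difference was 0.64 ± 0.21 (limma adjusted p = 0.037) and 0.66 ± 0.21 (0.030), and the second probe set gave 0.60 ± 0.18 (0.021) in mdx and 0.51 ± 0.18 in mdx5cv, at an adjusted p that rounds to 0.05 and did not pass. Cd47 stayed past the threshold in 19 and 24 of 32 fits that left out 1 array (up to 0.081 without mdx EDL sample 1 and 0.067 without mdx5cv diaphragm sample 2), and with the scan period as a block it was at 0.26 (0.48) and 0.40 (0.25). The Cd47 calls in both mutants were also lost under quantile normalization, with scan day as a random block and within the third period. In mdx the Cd47 call was lost without a filter too. Cd276, an immune checkpoint ligand of the B7 family found on many stromal cells, ran 574, 806 and 2388 in C57BL10, 545, 1475 and 1992 in mdx, and 1059, 1525 and 2817 in mdx5cv. C57BL10 TA sample 2 gave the high value, and without it 9 of 11 mdx and all but 1 mdx5cv array lay above the C57BL10 arrays. Cd276 differed by 0.66 ± 0.21 (limma adjusted p = 0.031) and 0.78 ± 0.21 (0.011), and by 0.97 (0.17) and 1.32 (0.028) within the third period. In mdx it passed in 22 of 32 fits that left out 1 array, reaching 0.069 without C57BL10 quadriceps sample 2. Averaged over the 5 limb muscles alone, 4 calls were lost: Cd34 (0.43, limma adjusted p = 0.092), Cd63 (0.51, 0.071) and Cd9 (0.60, 0.054) in mdx5cv and Cd276 in mdx (0.66, 0.057). The remaining 6 genes of the group did not pass in either mutant: the sialomucins Cd164 (0.11 and 0.23) and Cd24a (0.00 and -0.22), the leukocyte migration molecules Cd99 (0.15 and 0.00) and Cd99l2 (-0.16 and 0.11), the inhibitory ligand Cd200 (-0.05 and -0.03) and the transcobalamin receptor Cd320 (0.09 and -0.09).

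No member passed the direct test between the mutants. In mdx5cv against mdx none of the 36 probe sets passed (limma), while 0.523% of all probe sets did, and 4 of 31 genes reached an unadjusted p under 0.05, against 10.2% of all probe sets. These were Cd79b (0.75 ± 0.36, adjusted p = 0.48), Cd34 (0.45 ± 0.15, 0.31), Cd59a (0.35 ± 0.15, 0.41) and Cd99l2 (0.27 ± 0.12, 0.44). All 4 were higher in mdx5cv, and they were singled out after their values were seen. For Cd93 the difference was -0.14 ± 0.17, and for Cd55 it was 0.05 ± 0.15.

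Comparing the mean of both mutants with C57BL10 in each muscle, the number of member probe sets past the threshold was 1 in diaphragm (2.98% of all probe sets passed), 4 in EDL (2.59%), 3 in gastroc (2.25%), 5 in quadriceps (5.41%; 4 higher against 3.92% and 1 lower against 1.49%), 1 in soleus (1.57%) and 1 in TA (4.32%). Cd93 passed in 4 muscles, with differences of 1.48 ± 0.33 in diaphragm, 1.54 ± 0.33 in EDL, 1.99 ± 0.38 in gastroc and 1.60 ± 0.33 in quadriceps (limma adjusted p = 0.0091, 0.0070, 0.0027 and 0.0031). Cd55 passed in EDL (1.59 ± 0.30), gastroc (1.30 ± 0.35) and soleus (1.59 ± 0.30), with adjusted p = 0.0021, 0.047 and 0.0040. In soleus its C57BL10 signals were 441 and 606, the mdx signals 2125 and 2308, and the mdx5cv signals 920.1 and 1306. In diaphragm, by contrast, Cd55 was at 269 and 408 in C57BL10, 381.5 and 226 in mdx, and 656 and 658 in mdx5cv. The mdx diaphragm arrays overlapped C57BL10 and the mdx5cv arrays lay above them, at log2 differences of -0.17 and 0.99.

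Of the lymphoid and myeloid genes, Cd48, Cd52, Cd300c2 and Cd302 passed in EDL, gastroc or quadriceps, and none passed in diaphragm, soleus or TA. In diaphragm all mutant arrays lay above both C57BL10 arrays for Cd48, Cd52 and Cd300c2, and in soleus for Cd48 and Cd302. How many of all probe sets separate so was not counted, and such separation does not stand in for a call. Cd48 passed in gastroc (2.41 ± 0.63) and quadriceps (2.21 ± 0.55), with limma adjusted p = 0.041 and 0.015. Its gastroc signals were 69 and 86 in C57BL10, both under the floor, 801 in the mdx array and 489.9 in the mdx5cv array. Cd52 passed in quadriceps (2.48 ± 0.48, limma adjusted p = 0.0019), where C57BL10 gave 629.6 and 147, mdx 1759 and 1085, and mdx5cv 1882 and 2302. Without C57BL10 quadriceps sample 2, its low array, this difference was 1.43 and its adjusted p 0.22. Cd300c2 passed in EDL (1.63 ± 0.41, 0.025) and quadriceps (1.52 ± 0.41, 0.027), and Cd302 in EDL (1.26 ± 0.34, 0.045). Cd63 passed in TA (1.41 ± 0.33, 0.016), and without C57BL10 TA sample 2 it was at 0.52 with an adjusted p of 0.73. Cd24a was the 1 gene lower in a single muscle, quadriceps (-1.11 ± 0.30, 0.026), where C57BL10 gave 29142 and 28573, mdx 16810.2 and 10318, and mdx5cv 16832 and 10961.

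Each of the 15 single-muscle calls was lost in at least 1 fit that left out 1 of the 2 C57BL10 arrays of that muscle, which leaves 1 control array that is assumed to vary like the other groups. The highest adjusted p among the fits that left out 1 array was 0.23 for Cd93 in diaphragm without C57BL10 sample 1, 0.1 in EDL without sample 2, 0.16 in gastroc without sample 1 and 0.2 in quadriceps without sample 2. Without sample 1 it was 0.099 for Cd55 in EDL, 0.18 for Cd55 in soleus, 0.23 for Cd48 in gastroc, 0.16 for Cd48 in quadriceps, 0.22 for Cd300c2 in EDL, 0.38 for Cd300c2 in quadriceps and 0.61 for Cd302 in EDL. It was 0.42 for Cd55 in gastroc without sample 2 and 0.19 for Cd24a in quadriceps without either sample. Cd302 in EDL passed in 10 of 32 such fits, Cd55 in gastroc in 12 and Cd48 in gastroc in 20, and the other 12 calls in 27 or more. In TA all 10 lymphoid genes were below 0, with a median of -0.96, and none passed. Without C57BL10 TA sample 2, 6 of the 10 were below 0 and the median was -0.25. In the same comparison 5 of 9 tested liver markers were lower in the mutants (median -2.28), whose part in these values was not tested.

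**Figure D3:**
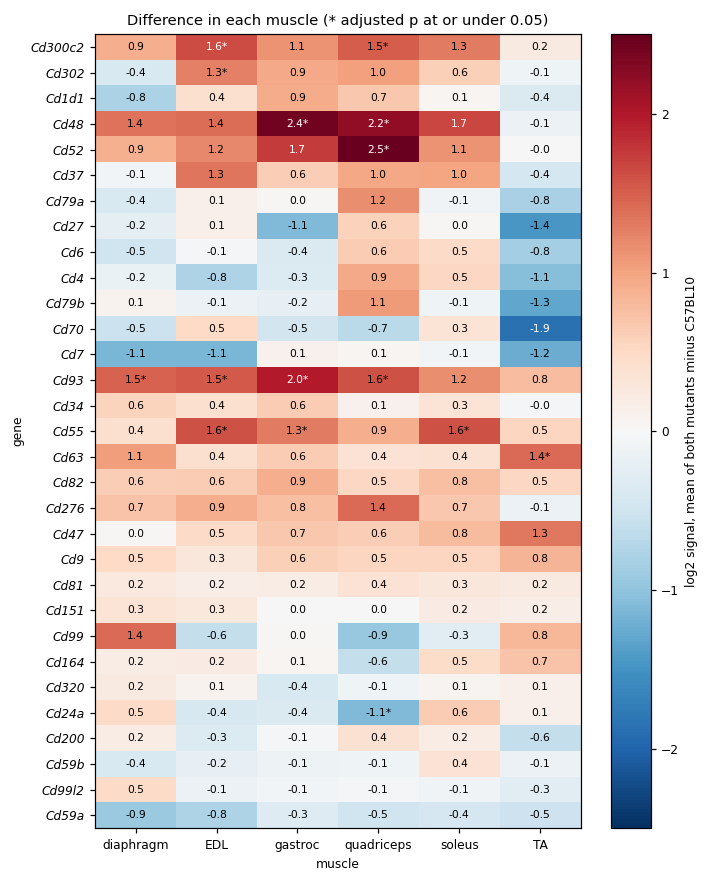
Log2 signal of the mean of both mutants minus C57BL10 in each of 6 muscles for the 31 tested genes, with stars at adjusted p at or under 0.05. Cd93 is above 0 in all 6 muscles and starred in 4, and the lymphoid genes of the TA column are below 0.

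Whether a change in the mutants differed between the diaphragm and the mean of the 5 limb muscles was tested directly. None of the 36 member probe sets passed (limma), against 0.228% of all probe sets, and 6 of 31 genes had an unadjusted p under 0.05, against 6.64% of all probe sets. They were Cd99 (1.61 ± 0.54) and Cd302 (-1.13 ± 0.37), both at an adjusted p of 0.35, with Cd1d1 (-1.14 ± 0.47), Cd55 (-0.78 ± 0.33), Cd24a (0.69 ± 0.33) and Cd99l2 (0.59 ± 0.26) at 0.61 to 0.73. For Cd99 the diaphragm signals were 2042 and 1983 in C57BL10, 4866 and 5528 in mdx, and 6147 and 5091 in mdx5cv.

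Among the 6 C57BL10 muscles, 8 of the 36 member probe sets differed in level (limma F test, adjusted p at or under 0.05), against 13.4% of all probe sets. Cd24a spanned 3.61 log2 units between the highest and lowest muscle mean (limma adjusted p = 6e-08). Its C57BL10 signals were 29142 and 28573 in quadriceps, 6567 and 6417 in soleus, and 2328 and 2404 in diaphragm. EDL gave 23700.0 and 25468, gastroc 23726 and 21375, and TA 22689.8 and 9331.5. EDL, gastroc, quadriceps and TA lay well above soleus and diaphragm, apart from the lower TA sample 2. In mdx soleus the signals were 12973 and 19328, a log2 difference of 1.29 from C57BL10, and in mdx5cv soleus 6508.5 and 6271, a difference of -0.02. The mean log2 level of the muscle markers, which are mostly fast fibre genes, was 14.59 in C57BL10 soleus, 15.16 in mdx soleus and 14.33 in mdx5cv soleus. The part of fibre type in the Cd24a values was not tested.

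Cd1d1 and Cd302 were highest in the diaphragm. Cd1d1 spanned 4.65 log2 units (limma adjusted p = 2.5e-06), with C57BL10 signals of 3197 and 4029 in diaphragm and 132 and 154 in EDL. In the other C57BL10 muscles it lay between 160.2 and 562. In diaphragm it was at 2293 and 4070.0 in mdx and at 1429 and 1369 in mdx5cv. Cd302 spanned 3.14 units (3.2e-05), with 2709.7 and 3057 in diaphragm and 259.7 and 410.5 in EDL, and its diaphragm signals were 2839 and 3202 in mdx and 1580.3 and 1629 in mdx5cv. The liver marker level of the diaphragm arrays ran from 14.54 to 14.59 in C57BL10, 14.47 to 15.01 in mdx and 13.19 to 13.41 in mdx5cv. Its part in these levels was not tested. Cd5l, secreted by tissue macrophages and under the filter, also had its highest signal in C57BL10 diaphragm sample 2, at 957.

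Cd55 was lowest in C57BL10 diaphragm (269 and 408) and highest in gastroc (1553 and 1058.5), a span of 1.95 (limma adjusted p = 7e-04). Cd79a spanned 2.70 (0.013), with 1633 and 1923 in diaphragm and 1219 and 4272 in TA, against 462 and 267 in quadriceps. Without C57BL10 TA sample 2 its adjusted p was 0.057. The B cell companions lay at a mean log2 of 9.63 in diaphragm and 9.59 in TA and at 8.22 to 8.65 in the other C57BL10 muscles. Cd59b was lowest in soleus (680.5 and 847) and spanned 1.23 (0.020), and Cd99l2 was lowest in diaphragm (1396 and 1586.5) and spanned 1.18 (0.023). Cd52 spanned 2.26 (0.042), with 1669.8 and 1278.5 in diaphragm, and passed in 19 of 40 alternatives. The calls for Cd24a, Cd1d1, Cd302 and Cd55 held in all 40 alternatives run for them. Without C57BL10 soleus sample 1 the adjusted p of Cd59b was 0.24, and without C57BL10 diaphragm sample 1 that of Cd99l2 was 0.19.

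**Figure D4:**
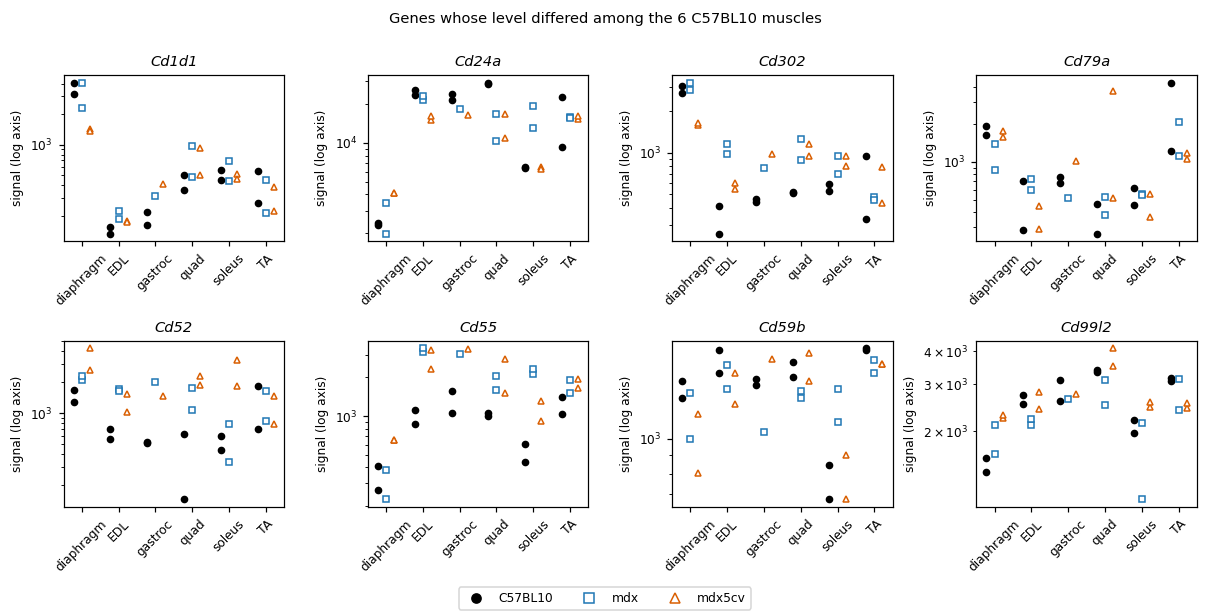
Signal (log axis) of the 8 genes whose level differed among the C57BL10 muscles, with filled circles for C57BL10 and open symbols for mdx and mdx5cv. Cd24a is low in diaphragm (2328 and 2404) and soleus, and Cd1d1 and Cd302 are high in diaphragm in all 3 strains.

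The other 35 probe sets lay under the filter, and for 23 genes every probe set did, 16 of them lymphoid, 5 myeloid and 2 in the other class. These include the T cell receptor complex (Cd3d, Cd3e, Cd3g and Cd247), the T cell coreceptors Cd8a and Cd8b1, the T cell surface molecules Cd2, Cd5, Cd28 and Cd96, the natural killer receptors Cd160 and Cd244a, and the B cell molecules Cd22, Cd40, Cd72 and Cd180. The myeloid genes were the costimulators Cd80, Cd83 and Cd86, with Cd1d2 and Cd5l, and the others were Cd44 and Cd46. At the floor in at least 17 arrays were 18 of the 35, for example Cd3g in 29 arrays and Cd8a in 29. Cd3g signals ran 22, 30.4 and 666 (lowest, median, highest) in C57BL10, 10.4, 38.5 and 137 in mdx and 19.2, 46.6 and 398 in mdx5cv. In 24 of the 35 the highest signal was that of C57BL10 TA sample 2, and in 5 that of mdx5cv quadriceps sample 2, the arrays that stood apart.

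**Figure D5:**
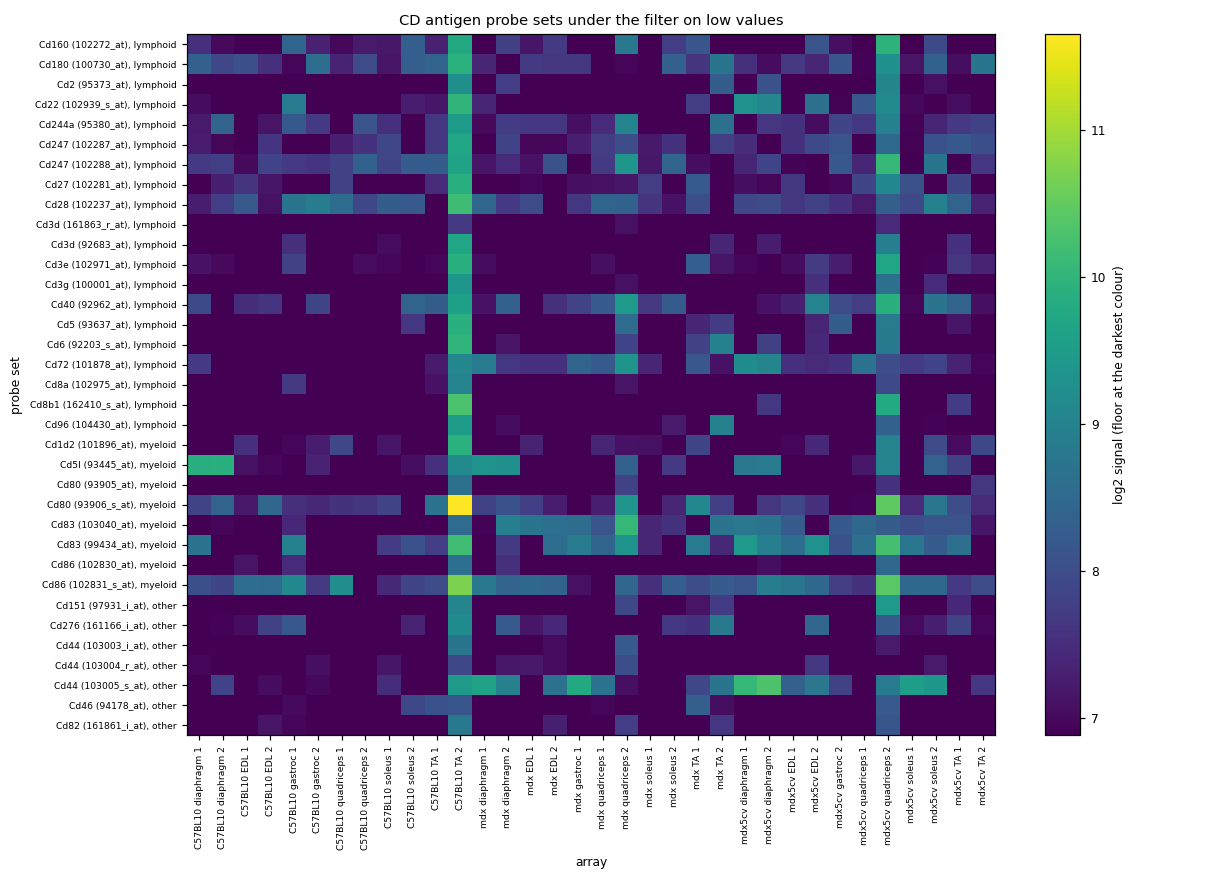
Log2 signal of the 35 CD antigen probe sets under the filter in each of the 34 arrays, with values at the floor in the darkest colour. The column of C57BL10 TA sample 2 is bright across most rows, and that of mdx5cv quadriceps sample 2 across many.

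With no filter, 3 of these 35 probe sets were higher in mdx and 2 in mdx5cv, against 5.71% and 6.06% of all probe sets higher (8.51% and 8.24% past the threshold in either direction). Cd44, the hyaluronan receptor of leukocytes and stroma, differed by 1.07 ± 0.32 in mdx (limma adjusted p = 0.038) and 1.28 ± 0.32 in mdx5cv (0.011). Its signals were 43, 101 and 697 in C57BL10, 19.2, 409 and 873 in mdx, and 65, 439 and 1267 in mdx5cv. In diaphragm they were 108 and 229.6 in C57BL10, 788.5 and 497 in mdx, and 1064 and 1267 in mdx5cv. The 2 other Cd44 probe sets were near 0 in both mutants and at the floor in 30 and 24 arrays. Cd83 is a surface marker of mature dendritic cells. Its brighter probe set was at 0.27 ± 0.36 in mdx (adjusted p = 0.73) and 0.93 ± 0.36 in mdx5cv (0.14) and did not pass. The dimmer one differed by 1.19 ± 0.30 (0.012) and 1.03 ± 0.30 (0.033), with medians of 61 in C57BL10, 386.5 in mdx and 294 in mdx5cv. Cd72, an inhibitory receptor of B cells that macrophages can carry, was at 0.80 ± 0.24 in mdx (0.035) and 0.74 ± 0.24 in mdx5cv (0.053). Its lowest mdx and mdx5cv signals, 105 and 125, lay above its C57BL10 median of 62. The 3 probe sets that passed had C57BL10 medians under the floor, so these differences understate any change below it.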

How the data were processed

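Per the experiment files, the arrays were Affymetrix MG_U74Av2 chips, and the labels give RNA pooled from 5 mice per sample. The deposited values are linear intensity signals per probe set, which the authors had scaled: the trimmed mean (2% off each end) is 1500.4 to 1501.3 on every array. The sources used here do not give how probe signals were summarised. Gene symbols came from the platform annotation (396 probe sets had several symbols, 1237 none).

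Values were floored at the 20th percentile (118), log2 transformed and, without 66 control probe sets, filtered at the 40th percentile of the means. One limma fit (limma 3.58.1, R 4.3.3) used 18 group means, 34 arrays and 16 residual degrees of freedom, with eBayes trend, a moderated F test for the levels among muscles, and Benjamini-Hochberg adjustment over 7453 probe sets. The spread of a group with 1 array was taken from the rest of the fit. The procedure was tested on simulated data with independent noise. These held no scan periods and no arrays that stood apart, so they cannot speak to errors from those. The precision is limited by the number of arrays.

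Members and lists were chosen with earlier results of these data known. Every member gene is named; those past the threshold have full values, and a gene is represented by its brightest probe set. Companion lists name up to 3 genes past the threshold. Alternatives included quantile normalization, no filter, another floor, no trend, array weights, blocks for sample number, scan day and scan period, and leaving out arrays; fits within the third scan period, without diaphragm and without EDL were added after seeing the data. The fit within the third period used strain and muscle as terms. Fits with scan day or scan period as a block used only the 30 arrays with a recorded scan day. They lacked C57BL10 diaphragm sample 2, C57BL10 TA sample 2, mdx TA sample 1 and mdx5cv TA sample 2. The period block joined the last period to the third.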

Additional observations from a re-analysis of the deposited data

How the results depend on the processing

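Counts of member probe sets past the threshold moved with the scan period, with scan day, with array weights and with single arrays. Within the third scan period, with 15 arrays, 1 passed in mdx and 5 in mdx5cv (12 and 11 with all arrays), while over all probe sets 186 and 271 passed in place of 1182 and 1112; the construction has fewer arrays. In the same fit Cd34 in mdx turned to -0.06 (limma adjusted p = 0.95), a value that did not pass in either fit. In diaphragm the count was 1, and 2 under quantile normalization, under the replicate block and without both arrays that stood apart, and 7 with array weights; over all probe sets it was 222, then 184, 254, 457 and 1138. With scan day as a random block (correlation 0.358) it was 7 in place of 4 in EDL, 9 in place of 5 in quadriceps, 3 in place of 1 in soleus, 0 in place of 1 in TA and 5 in place of 8 among the C57BL10 muscles, as the counts over all probe sets went from 193 to 426, 403 to 626, 117 to 219, 322 to 93 and 996 to 693. The scan day fit used only the 30 arrays with a recorded day, so C57BL10 diaphragm and each TA group kept 1 array. Blocking and the missing arrays cannot be told apart in its counts. Without a filter 1 passed in place of 3 in gastroc (140 and 168 over all). In soleus 3 passed without both arrays that stood apart and 4 with array weights (208 and 255 over all). In TA 3 passed under quantile normalization and 2 with the replicate block, and 0 without both arrays that stood apart and 0 with array weights (870, 401, 173 and 15 over all). Array weights gave 1 in place of 0 for diaphragm against limb and 15 in place of 8 among the C57BL10 muscles (154 in place of 17 and 2380 in place of 996 over all). The cause of these shifts was not tested. Fits that left out 1 array gave 10 to 13 in mdx, 10 to 13 in mdx5cv, 0 between the mutants, 0 to 2 in diaphragm, 0 to 4 in EDL, 0 to 3 in gastroc, 1 to 8 in quadriceps, 0 to 2 in soleus, 0 to 5 in TA, 0 for diaphragm against limb and 5 to 16 among the C57BL10 muscles. Quantile normalization moved the median of all probe sets in TA from 0.00 to 0.16, with 7 of 10 lymphoid genes below 0.

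Deviations of samples with the same number correlated at -0.36 to 0.62 (median 0.05, over 120 group pairs). The main fit did not pair samples by number. The labels do not say whether equal numbers share animals, and these correlations cannot settle it. With the replicate block 12 member probe sets passed in mdx and 13 in mdx5cv. Over the genes that passed with all arrays and their alternatives, 1822 values kept their direction and side of the threshold, 201 no longer passed, 14 newly passed and 1 reversed. The new passes of Cd37, Cd7 and Cd81 given above lie outside this tally.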
